A study of Mus musculus with 4 samples.

Results

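Pck1 and 6 further genes of hepatic glucose production were examined on the liver arrays of wild-type and PEPCK-TAg transgenic mice. Members were all probe sets whose only annotated gene symbol was Pck1, Pcx, Slc37a4, Fbp1, Ppargc1a, Tat or Gpt, together with the mouse pyruvate carboxylase control probe sets of the array. This gave 6 of the 8252 genes named on the array, read by 11 of its 12488 probe sets, of which 6 read Pcx (4 of them controls) and 1 each read Pck1, Slc37a4, Fbp1, Ppargc1a and Tat. No probe set carried the single symbol Gpt, so the alanine aminotransferase gene was not analysed here. Total liver RNA came from male B6SJL hybrid mice aged 58 to 60 days that ate a diet of 10% protein and 70% carbohydrate freely for 4 weeks from weaning. The wild-type group carried no transgene (2 arrays), and the PEPCK-TAg group carried a transgene in which the Pck1 promoter drives the SV40 large T antigen and small t antigen (2 arrays), on the same diet. Whether the duplicate arrays represent different mice is not given in the labels, so every p-value below reflects array-to-array spread that could be technical. The labels do not name the transgenic line.

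Gluconeogenesis makes glucose from lactate, amino acids and glycerol. Pyruvate carboxylase (Pcx) turns pyruvate into oxaloacetate, phosphoenolpyruvate carboxykinase (Pck1) turns oxaloacetate into phosphoenolpyruvate, and fructose bisphosphatase (Fbp1) removes a phosphate further along. The last step takes place in the endoplasmic reticulum, where the transporter encoded by Slc37a4 admits glucose-6-phosphate and glucose-6-phosphatase (G6pc) releases glucose. Tyrosine aminotransferase (Tat) starts the breakdown of tyrosine, and the coactivator PGC-1alpha (Ppargc1a) raises transcription of several of these genes in fasting. In liver, glucagon acting through cyclic AMP and CREB, and glucocorticoids, raise Pck1 transcription, and insulin lowers it.

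The sequences before 4 RefSeq starts (GRCm38.p6) are shown because the Pck1 promoter also drives the transgene, Slc37a4 and Pcx were the members that passed the test below, and Fbp1 had the smallest change among the members tested with all 4 arrays. Each is the 250 bases before the most upstream annotated start, 5′ to 3′ on the gene's strand. Capitals mark the CREB half-site CGTCA on either strand and, in Pck1 alone, the AT-rich run TATTTAAA.
Pck1, chr2:173152823-173153072, plus strand: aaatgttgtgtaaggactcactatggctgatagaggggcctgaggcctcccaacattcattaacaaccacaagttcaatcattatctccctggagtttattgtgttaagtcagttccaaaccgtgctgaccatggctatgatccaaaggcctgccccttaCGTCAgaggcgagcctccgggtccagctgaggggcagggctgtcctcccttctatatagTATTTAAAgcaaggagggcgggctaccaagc
Slc37a4, chr9:44396696-44396945, plus strand: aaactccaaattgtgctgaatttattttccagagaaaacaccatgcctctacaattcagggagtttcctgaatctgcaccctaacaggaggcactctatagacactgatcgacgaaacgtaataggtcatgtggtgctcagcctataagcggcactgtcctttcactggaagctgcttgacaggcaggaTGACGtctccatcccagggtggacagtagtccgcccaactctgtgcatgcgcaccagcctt
Pcx, chr19:4510222-4510471, plus strand: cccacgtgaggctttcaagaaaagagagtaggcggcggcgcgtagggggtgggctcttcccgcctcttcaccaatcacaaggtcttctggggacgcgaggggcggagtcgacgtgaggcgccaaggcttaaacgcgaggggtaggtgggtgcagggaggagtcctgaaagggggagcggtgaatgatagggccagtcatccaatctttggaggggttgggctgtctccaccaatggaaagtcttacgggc
Fbp1, chr13:62888283-62888532, minus strand: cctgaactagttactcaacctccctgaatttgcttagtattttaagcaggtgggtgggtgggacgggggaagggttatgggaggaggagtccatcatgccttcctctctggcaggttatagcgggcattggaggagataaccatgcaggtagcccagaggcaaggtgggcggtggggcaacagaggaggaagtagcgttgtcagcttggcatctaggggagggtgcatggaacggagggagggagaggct

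The Pck1 window held CGTCA starting 90 bases before the start, within a match to the longer CREB site TNACGTCA starting 93 bases before it, and TATTTAAA starting 31 bases before it. The half-site occurred on either strand in 17.8% of 32851 RefSeq windows of this length, the longer site in 2.52% and TATTTAAA in 1.71%. The half-site was also matched once in the first Slc37a4 window, at 61 bases, and once before Ppargc1a, at 49 bases. The second of the 3 Slc37a4 starts had 2 matches, at 214 and 82 bases, and the third had 0. The second window overlaps the first, and its match at 214 bases is the same site as that at 61 bases. The windows before both Pcx starts and before Fbp1 and Tat had 0 matches to it. The nuclear receptor half-site AGGTCA, present in 14.0% of windows, was matched before the first Slc37a4 start, and the glucocorticoid receptor half-site TGTTCT, present in 16.1%, was matched before none of these genes. TATAAA, present in 12.4%, was matched among the members before the third Slc37a4 start alone. These matches describe letters in the windows, and the arrays do not measure binding.

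Each array gave 1 MAS5 signal per probe set, with the same trimmed mean of 250.2. Across tested probe sets the log2 signals correlated with r = 0.965 between the wild-type arrays and 0.966 between the PEPCK-TAg arrays, where probe sets are not independent replicates. Hepatocyte markers were bright on all arrays, with albumin (Alb) between 12446 and 16723. The summed signal of 17 hepatocyte markers was 149436 and 134496 in wild type against 114827 and 105549 in PEPCK-TAg, which is 77.6% of the wild-type sum. Of the 17, 2 (Apoa2 and F2) fell, where 3.01% of all 5650 genes were called lower and 6.83% higher. At an unadjusted limma p under 0.05, 9 of the 17 were lower and 0 higher, and their median log2 change was -0.38. With its kept probe sets averaged, Apoa2 changed by -0.44 in log2 and did not pass (limma adjusted p = 0.116). The summed signal of 17 macrophage markers was 5024 and 8711 in wild type against 15440.1 and 20991 in PEPCK-TAg, with 7 higher. C1qb, 1 of the 7, did not pass with its kept probe sets averaged (limma adjusted p = 0.0908). Of dividing cell markers, 11 of 11 measured were higher. Mki67, Top2a, Cdk1, Birc5 and Aurka had wild-type signals of 5.4 to 26.8. Mcm2 had 54.5 and 33.5 in wild type, with a mean of 44.0 under the lowest kept mean near 48.1. All of these were kept through their PEPCK-TAg signals. Their part of the count is therefore no support for a direction. Bub1 lay under the signal minimum, at 1.7 and 19.1 in wild type against 86.1 and 52.6 in PEPCK-TAg. Of markers of endothelium (10 measured), 0 passed in either direction, and 3 were lower at an unadjusted limma p under 0.05. Of 9 stellate and matrix markers 1 was higher. Of 7 bile duct markers on the array 3 were measured and higher (Krt8, Krt18 and Anxa4), of which the keratins are also made by hepatocytes, while Krt7, Krt19, Epcam and Cldn7 lay between 2.8 and 15.9 on all arrays. Of 4 red cell markers Car2 was higher, while Alas2 (log2 change -2.01), Hba-a1 (-0.52) and Slc4a1 (0.23) did not pass. Of the measured adipose, pancreas and lymphocyte markers (3 in each list), 0 passed and 0 had an unadjusted limma p under 0.05, and the kidney markers all lay under the signal minimum. No marker on the array was listed at 0. The part of these shifts in the results below was not tested, and fewer hepatocytes and less RNA per hepatocyte cannot be told apart in whole liver.

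PEPCK-TAg was compared with wild type by limma on log2(signal + 13) over 7453 probe sets above a signal minimum, with Benjamini-Hochberg adjustment and a threshold of 0.05. Of the 11 member probe sets, 6 entered that fit. Ppargc1a lay below the signal minimum, and the 4 pyruvate carboxylase controls stayed out with the other controls. Of the 6, 2 fell (Slc37a4 and 1 of the Pcx probe sets), 0 rose, also at an unadjusted p under 0.05, and 4 did not pass. Among all tested probe sets 3.07% were called lower and 6.40% higher, 229 and 477 in number. With arrays centred on their medians, which moved the median log2 change of all tested probe sets from 0.01 to -0.14, the split was 409 lower and 403 higher. Groups did not overlap in 5 of the 6, each lower in PEPCK-TAg, and 26.3% of all tested probe sets had groups apart in that direction.

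Pck1, the gene whose promoter drives the transgene, had signals of 2372 and 2308 on wild-type replicates 1 and 2, and of 1605 and 565.5 on PEPCK-TAg replicates 1 and 2. Both PEPCK-TAg arrays lay below both wild-type arrays, but they lay far from each other, while the wild-type arrays were nearly alike. On the log2 scale the gap within PEPCK-TAg was 1.48 and that within wild type 0.04. Means were 2339.9 ± 45.3 (SD, n = 2) and 1085 ± 735 (SD, n = 2), so PEPCK-TAg had 46.4% of the wild-type mean. The log2 change was -1.28 ± 0.43 (SE), with a 95% interval of -2.31 to -0.25, and did not pass (limma, Benjamini-Hochberg adjusted p = 0.121). Of all tested probe sets, 0.859% had a change at least as far below 0. The size of the Pck1 change depended on which PEPCK-TAg array was used. It was -2.02 without PEPCK-TAg replicate 1, where it passed (limma, adjusted p = 0.000979), and -0.54 without PEPCK-TAg replicate 2, where it did not (adjusted p = 0.218).

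**Figure D1:**
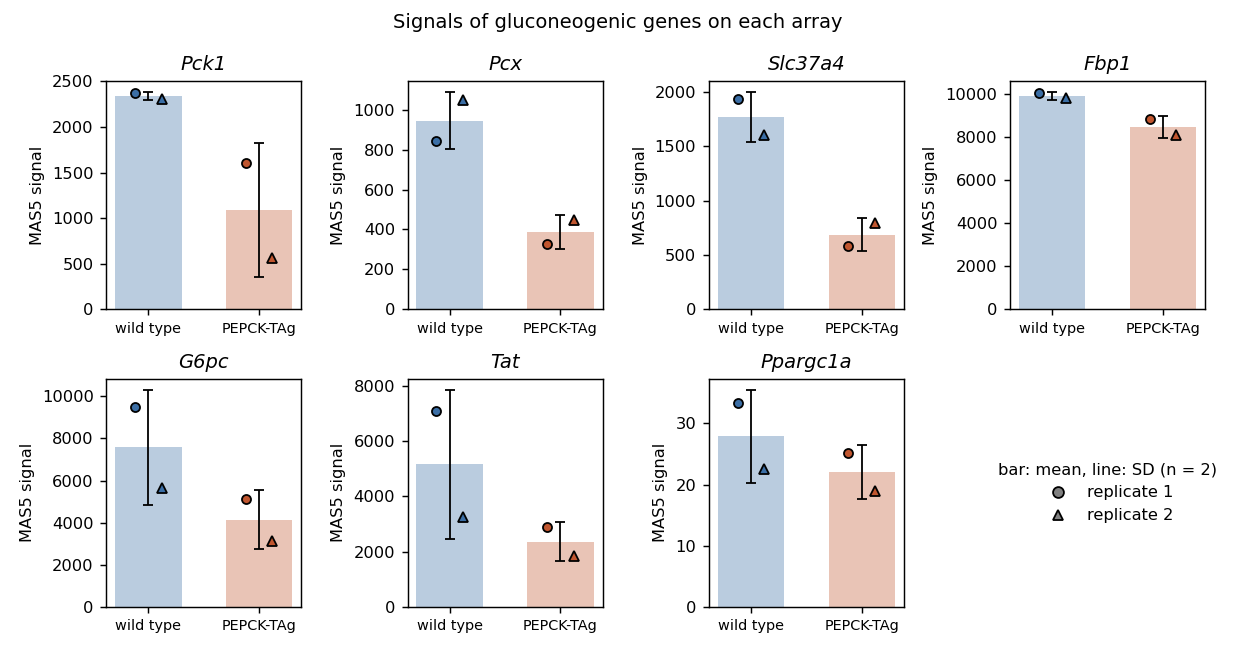
MAS5 signal (vertical axes from 0, 1 panel per gene) in wild type and PEPCK-TAg, with bars for the mean of 2 arrays, lines for the SD, circles for replicate 1 and triangles for replicate 2. Pcx is shown by its _s_at probe set. The groups are apart for Pck1, Pcx, Slc37a4, Fbp1, G6pc and Tat and overlap for Ppargc1a, and the PEPCK-TAg arrays of Pck1 stand at 1605 and 565.5.

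Slc37a4, which encodes the glucose-6-phosphate transporter of the endoplasmic reticulum, had the largest fall among the members tested with all 4 arrays. Its signals were 1936 and 1609 in wild type against 579 and 797 in PEPCK-TAg, so the groups were well apart and PEPCK-TAg held 38.8% of the wild-type mean. The log2 change was -1.36 ± 0.20 (SE) with a 95% interval of -1.85 to -0.87 (limma, Benjamini-Hochberg adjusted p = 0.0119). Without wild-type replicate 1 the change was -1.23 with an adjusted p of 0.0509 in limma. The level was 77.6% for the summed hepatocyte markers, 38.8% for Slc37a4 and 85.5% for Fbp1, all as shares of wild type. The part of hepatocyte content in these values was not tested.

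G6pc, the catalytic partner of that transporter and not itself a member, had signals of 9517 and 5628 in wild type against 5129 and 3144 in PEPCK-TAg. The lower wild-type array lay only a little above the higher PEPCK-TAg array. Its log2 change of -0.86 ± 0.31 (SE) did not pass (limma, Benjamini-Hochberg adjusted p = 0.139). It passed without PEPCK-TAg replicate 1, at -1.22 (limma adjusted p = 0.0416), and was -0.49 when wild-type replicate 1 was left out and -0.51 when PEPCK-TAg replicate 2 was. G6pc3, the broadly expressed form of the phosphatase, had signals of 222 and 168 in wild type against 240.1 and 167 in PEPCK-TAg, and its groups overlapped.

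Pcx, which encodes the mitochondrial enzyme that supplies oxaloacetate, was read by 6 probe sets on every array. By the probe set whose name ends in _s_at its signals were 844 and 1048 in wild type against 325 and 445 in PEPCK-TAg. The groups were apart, with PEPCK-TAg at 40.7% of the wild-type mean and a log2 change of -1.28 ± 0.21 (SE), 95% interval -1.78 to -0.77 (limma, Benjamini-Hochberg adjusted p = 0.0162). Without wild-type replicate 2 the change was -1.12 with an adjusted p of 0.0541 in limma. The suffix of this probe set marks sequence that other transcripts can share.

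The control probe sets read Pcx at its 3′ end, its 5′ end and between them. The 3′ control had signals of 2322 and 2962 in wild type against 1322 and 1734 in PEPCK-TAg. The MB control had 241 and 233 in wild type against 120.5 and 138 in PEPCK-TAg. The 5′ control had 138.5 and 113 against 80.0 and 92.6, and the MA control 46.1 and 54.2 against 30.1 and 28.8. In all 4 both PEPCK-TAg arrays lay below both wild-type arrays, as in 26.3% of all tested probe sets. The 4 controls read 1 gene on the same arrays, so they are not independent of each other. PEPCK-TAg held 54.6% (MB) to 68.6% (5′) of the wild-type mean, a smaller difference than by the _s_at probe set. Log2 changes were -0.79 for the 3′ control, -0.48 for the 5′ control, -0.57 for MA and -0.81 for MB. When the controls were entered into the limma fit, MB passed (Benjamini-Hochberg adjusted p = 0.0426) and the 3′ control (adjusted p = 0.0585), the 5′ control (0.223) and MA (0.246) did not.

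The sixth Pcx probe set, whose name ends in _f_at, did not follow the others. Its signals were 216 and 162 in wild type against 101 and 205 in PEPCK-TAg, so the groups overlapped and PEPCK-TAg held 80.8% of the wild-type mean. Its log2 change was -0.35 ± 0.33 (SE) and did not pass (limma, Benjamini-Hochberg adjusted p = 0.562). Its suffix marks a set of probes that can read a family of related sequences. With the log2 values of both tested Pcx probe sets averaged, the change was -0.81 and did not pass (limma adjusted p = 0.0908). Dividing the 3′ Pcx control by the 5′ control gave 16.8 and 26.2 in wild type against 16.5 and 18.7 in PEPCK-TAg, so wild-type replicate 2 stood above the other arrays. The same ratio of Gapdh was at most 3.80 and that of actin between 4.06 and 5.06. The part of RNA integrity in the Pcx values was not tested.

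**Figure D2:**
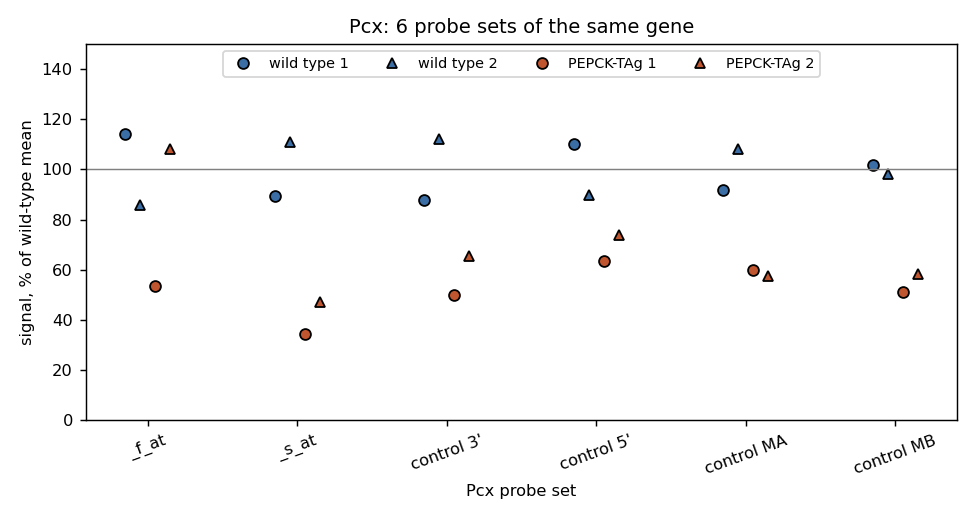
Signal of each array as a percent of the wild-type mean (vertical axis) for the 6 Pcx probe sets (horizontal axis), with circles for replicate 1 and triangles for replicate 2. Both PEPCK-TAg arrays lie below both wild-type arrays in 5 of the 6, as in 26.3% of all tested probe sets. The 6 read 1 gene on the same arrays and are not independent. PEPCK-TAg replicate 2 lies among the wild-type arrays for the _f_at probe set.

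Fbp1, which encodes the liver fructose bisphosphatase, had the smallest change among the members tested with all 4 arrays. Its signals were 10034 and 9780.4 in wild type against 8832 and 8106 in PEPCK-TAg. The groups were apart by a small margin, and PEPCK-TAg held 85.5% of the wild-type mean. The log2 change was -0.23 ± 0.12 (SE) with a 95% interval of -0.52 to 0.06 (limma, Benjamini-Hochberg adjusted p = 0.288). With quantile normalization and with cyclic loess it was 0.074 and 0.10, so its direction was not settled. Fbp2, the muscle form, lay between 4.80 and 9.70 on all 4 arrays, below the signal minimum.

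Pck2, the mitochondrial form of the carboxykinase, had signals of 76.1 and 53.3 in wild type against 105 and 118 in PEPCK-TAg. Unlike Pck1 its PEPCK-TAg arrays were the higher ones. The log2 change was 0.70 ± 0.25 (SE) and did not pass (limma, Benjamini-Hochberg adjusted p = 0.138). A dimmer Pck2 probe set had 49.9 and 21.7 in wild type against 60.0 and 48.9 in PEPCK-TAg, and its groups overlapped.

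Tat, which encodes an enzyme that glucocorticoids and glucagon raise in liver, had signals of 7073 and 3246 in wild type against 2876 and 1853 in PEPCK-TAg. The wild-type arrays lay far apart, and the lower of them was close to PEPCK-TAg replicate 1. PEPCK-TAg held 45.8% of the wild-type mean. The log2 change of -1.05 ± 0.38 (SE) had a 95% interval of -1.95 to -0.15 and did not pass (limma, Benjamini-Hochberg adjusted p = 0.14). It was -0.49 without wild-type replicate 1 and -1.61 without wild-type replicate 2.

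Ppargc1a, the coactivator, was dim on every array. Its signals were 33.3 and 22.5 in wild type against 25.2 and 19.0 in PEPCK-TAg, below the lowest kept mean, near 48.1. The groups overlapped, and PEPCK-TAg held 79.2% of the wild-type mean. With no signal minimum its log2 change of -0.21 did not pass (limma, Benjamini-Hochberg adjusted p = 0.742).

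**Figure D3:**
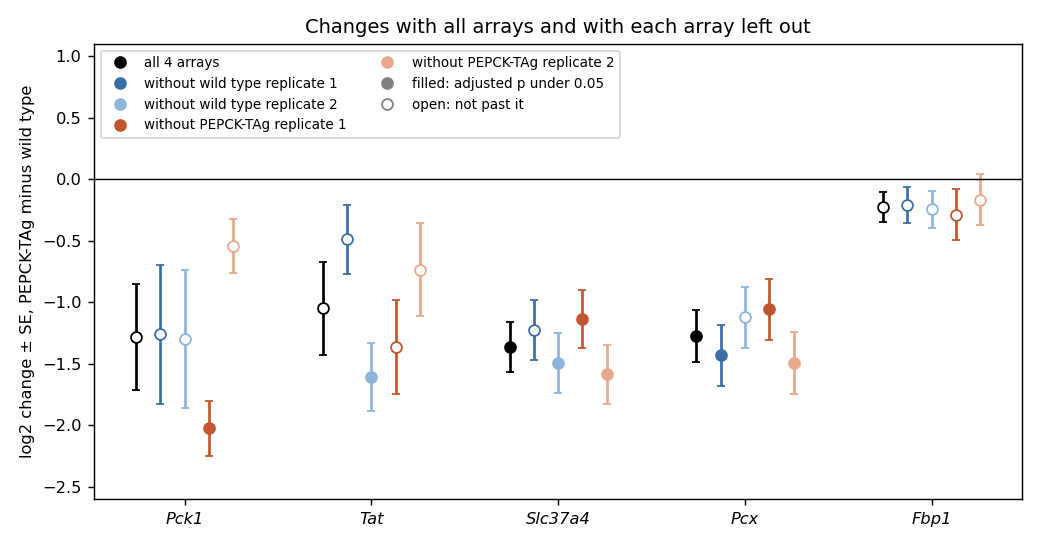
Log2 change of signal + 13, PEPCK-TAg minus wild type, with SE (vertical axis) for 5 members, with all 4 arrays and with each array left out; filled points passed limma at a Benjamini-Hochberg adjusted p of 0.05. Pck1 ranges from -2.02 to -0.54 and Tat from -1.61 to -0.49, while Slc37a4 stays between -1.59 and -1.13 and Pcx (_s_at) at or below -1.06. With 1 array left out, SE and fill hold no spread from the group left with 1 array.

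The members did not share 1 order of arrays within the groups. Pck1, Tat, Fbp1 and Ppargc1a, and G6pc beside them, were lower on replicate 2 than on replicate 1 in both groups. Slc37a4 and the _f_at probe set of Pcx were lower on replicate 2 in wild type and higher on it in PEPCK-TAg. Pcx by its _s_at probe set was higher on replicate 2 in both groups. The named probe sets closest to Pck1 over the 4 arrays, by Euclidean distance between log2 profiles centred on their means, were Chga (distance 0.30), Igfals (0.34), Hal (0.47), Leng8 (0.51) and Grid1 (0.52), out of all tested probe sets that are not members. Chga, the nearest, was dim, with 98.3 and 104.4 in wild type against 63.0 and 21.8 in PEPCK-TAg. Leng8 and Grid1 were also dim, at 27.6 and 19.7 on PEPCK-TAg replicate 2. Igfals, which encodes a liver-made binding partner of insulin-like growth factors, had 635 and 612 in wild type against 443 and 195 in PEPCK-TAg. Hal, which encodes the histidine ammonia-lyase that opens histidine breakdown, had 2093 and 1574.5 in wild type against 1004 and 516.5 in PEPCK-TAg. Over 4 arrays this likeness is a description. Among members, Tat was nearest to Pck1 and the _f_at probe set of Pcx farthest (distance 1.97).

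Beyond the members, the list of gluconeogenic and reversible glycolytic steps had 16 measured genes. Of these 3 fell, 0 rose and 13 missed the threshold. The median log2 change was -0.15 beside 0.01 over all 5650 genes, of which 3.01% were called lower and 6.83% higher. The third gene beside Slc37a4 and Pcx was Slc25a1, the mitochondrial citrate carrier, which the list held though it is not itself a step of the pathway. Slc25a1 had 2013 and 2391 in wild type against 767.5 and 1043 in PEPCK-TAg (limma adjusted p = 0.0130). The other Slc25a1 probe set also fell, by 0.82 on the log2 scale (adjusted p in limma 0.0287). With a gene's kept probe sets averaged, 2 genes of the list fell, without Pcx. Lactate dehydrogenase A (Ldha), which makes pyruvate from lactate, had a log2 change of -0.43 and did not pass (limma, adjusted p = 0.104).

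Genes of amino acid entry had 14 measured members, of which 2 fell, 0 rose and 12 missed the threshold. Their median log2 change was -0.48. Agxt, which encodes the alanine-glyoxylate aminotransferase, had 995 and 633 in wild type against 331 and 308 in PEPCK-TAg, with a log2 change of -1.28 ± 0.24 (limma, Benjamini-Hochberg adjusted p = 0.0224). Gstz1, an enzyme of tyrosine breakdown, fell by 0.56 on the log2 scale (adjusted p = 0.0414 in limma). Agxt lost its call without wild-type replicate 1 (limma adjusted p = 0.0537) and Gstz1 with any 1 of the 4 arrays left out (limma adjusted p from 0.0822 to 0.218). The Gstz1 change was -0.24 with quantile normalization and -0.30 with cyclic loess, and did not pass with either (limma adjusted p = 0.271 and 0.168), with no signal minimum (0.119) or without the variance trend (0.113). Agxt lay just over the threshold with no signal minimum (limma adjusted p = 0.05001). Hal (-1.32), Tdo2 (-0.50), Fah (-0.57) and Prodh2 (-0.63), enzymes of histidine, tryptophan, tyrosine and hydroxyproline breakdown, did not pass (adjusted p in limma 0.0502, 0.0549, 0.0823 and 0.0862).

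**Figure D4:**
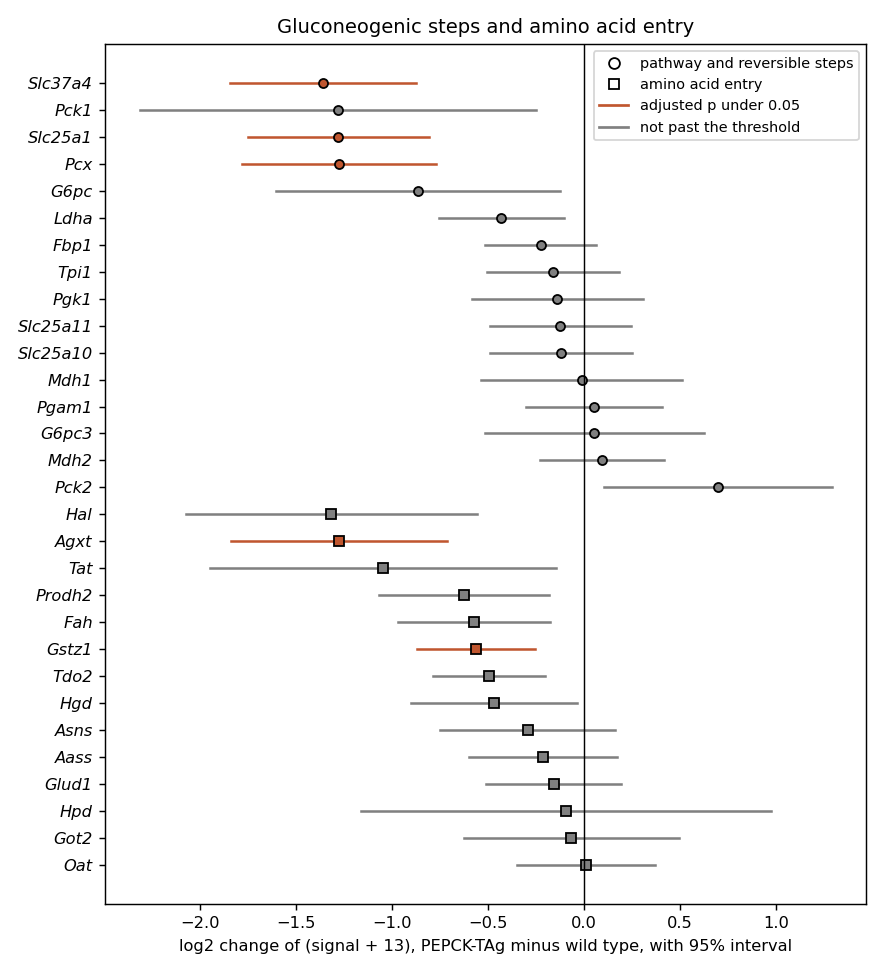
Log2 change of signal + 13, PEPCK-TAg minus wild type, with its 95% interval (horizontal axis) for the 16 measured genes of gluconeogenic and reversible steps (circles) and the 14 of amino acid entry (squares); orange marks a Benjamini-Hochberg adjusted p under 0.05 in limma. Slc37a4, Slc25a1, Pcx, Agxt and Gstz1 are marked, and the widest intervals belong to Pck1 and Hpd.

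Of 6 measured genes of glycerol, fructose and lactate entry, 2 fell and 0 rose, with a median log2 change of -0.31. The glycerol channel Aqp9 had 2023 and 1970.0 in wild type against 751 and 1079.6 in PEPCK-TAg (limma adjusted p = 0.0196). The glycerol phosphate dehydrogenase Gpd1 had 1989.6 and 2079 in wild type against 1183 and 1242 in PEPCK-TAg (adjusted p = 0.0242 in limma). Gpd1 was not called when any 1 array was left out (limma adjusted p from 0.0666 to 0.0994), and Aqp9 without wild-type replicate 1 (0.0684) or 2 (0.0556). Gpd1 did not pass with its kept probe sets averaged (-0.66, limma adjusted p = 0.0624) or without the variance trend (0.0606). The glucose transporter Slc2a2, with a log2 change of -0.33, did not pass (limma adjusted p = 0.175).

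The list of glycolysis and pyruvate dehydrogenase held enzymes that use up glucose or pyruvate, and also Pdk1 and Pdk4, kinases that switch pyruvate dehydrogenase off. Of its 11 measured genes, 1 fell and 0 rose, with a median log2 change of -0.28. Pyruvate kinase of liver (Pklr) had 972.5 and 677 in wild type against 326 and 387 in PEPCK-TAg (limma adjusted p = 0.0234). The other Pklr probe set had a log2 change of -0.78 and did not pass (adjusted p in limma 0.0697). The Pklr call was lost when wild-type replicate 1 (limma adjusted p = 0.0699) or replicate 1 of PEPCK-TAg (0.0562) was left out, and with no signal minimum (0.0501). Dlat (-0.57), Pdk1 (-0.55) and Pfkm (-0.55) did not pass (adjusted p in limma 0.0941, 0.121 and 0.121). With its kept probe sets averaged, Dlat changed by -0.32. Pkm, the pyruvate kinase of muscle and dividing cells, had 105 and 141.5 in wild type against 172 and 448.5 in PEPCK-TAg. Its PEPCK-TAg replicate 2 stood far above the other arrays, and it did not pass (adjusted p in limma 0.150). Of 5 measured genes of biotin-dependent carboxylases and biotin handling, Pcx by its _s_at probe set alone fell and 0 rose, with a median of -0.42, and 0 fell with a gene's kept probe sets averaged.

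Among 38 measured genes of hormone and transcription control, 3 fell and 0 rose, with a median log2 change of -0.14. The glucagon receptor gene Gcgr had 1916 and 2134 in wild type against 1114 and 1034 in PEPCK-TAg, with a log2 change of -0.91 ± 0.15 (limma, Benjamini-Hochberg adjusted p = 0.0159). Nr1h4, the bile acid receptor, had 1189.9 and 968 in wild type against 605 and 510.4 in PEPCK-TAg (adjusted p = 0.0255 in limma), and Igfbp2, an insulin-responsive binding protein gene, changed most of the list, by -3.47 in log2. Gcgr lost its call when replicate 2 of either group was left out (limma adjusted p = 0.0529 for wild type and 0.0550 for PEPCK-TAg), and Nr1h4 when wild-type replicate 1 (0.0934) or replicate 2 of PEPCK-TAg (0.0854) was. Nr1h4 also did not pass without the variance trend (limma adjusted p = 0.0516). The transcription factor genes Ppara (-0.63) and Cebpa (-0.44) and the cytokine signalling inhibitor gene Socs3 (1.03) did not pass (adjusted p in limma 0.0713, 0.0989 and 0.0829).

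Of 10 measured glycogen genes 2 rose, 1 fell and 7 missed the threshold. The median log2 change was 0.08. The brain form of glycogen phosphorylase (Pygb) had 34.5 and 44.4 in wild type against 138 and 113.5 in PEPCK-TAg, and the phosphoglucomutase gene Pgm2 had 36.9 and 24.7 against 90.9 and 96.1 (limma, Benjamini-Hochberg adjusted p = 0.0206 and 0.0380). All 4 of these wild-type values lay under 48.1, near the lowest kept mean, so both genes were kept through their PEPCK-TAg signals, and their count is no support for a direction of the list. Neither was tested with the minimum at the 60th percentile, and neither passed with no minimum (limma adjusted p = 0.0584 for Pygb and 0.0770 for Pgm2). Gaa, the lysosomal glucosidase, had 835 and 729.8 in wild type against 411 and 467 in PEPCK-TAg (adjusted p = 0.0311 in limma), while its dim other probe set, at 18.8 to 56.6, was below the signal minimum and 0.64 higher in log2. Gaa and Pgm2 were not called when any 1 array was left out (limma adjusted p from 0.0539 to 0.117 and from 0.0506 to 0.166). Without the variance trend Gaa did not pass (limma adjusted p = 0.0588), nor did Pgm2 with quantile normalization (0.0507). Pygb lost its call without wild-type replicate 1 (0.0572), PEPCK-TAg replicate 1 (0.102) or PEPCK-TAg replicate 2 (0.0502).

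The count of 0 higher genes in 6 of the 7 lists came from limma after adjustment. At an unadjusted limma p under 0.05, 1 gene of the gluconeogenic and reversible steps (Pck2), 1 of glycolysis and pyruvate dehydrogenase (Pkm) and 4 of hormone and transcription control (Socs3, Cebpd, Foxo3 and Foxa3) were higher, and 0 of amino acid entry, 0 of glycerol, fructose and lactate entry and 0 of the biotin list. Foxo3 and Foxa3 are named for this count, after their values were seen. Lower at that unadjusted p were 6 genes of gluconeogenic and reversible steps, 8 of amino acid entry and 5 of glycolysis and pyruvate dehydrogenase. So were 9 of hormone and transcription control, 3 of glycerol, fructose and lactate entry and 2 of the biotin list. These lower counts include the genes past the adjusted threshold.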

How the data were processed

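Total liver RNA was measured on 4 Affymetrix MG_U74Av2 arrays, 2 wild type and 2 PEPCK-TAg, grouped by the sample titles. The deposited values are MAS5 signal intensities on a linear scale, per the submitters' processing notes, with software version, scaling target and detection calls not given in the sources used here. Chip lot, fluidics station and scan day were shared, per the file headers. Symbols came from the platform annotation: of 12422 probe sets that are not controls, 10833 had 1 symbol, 396 several (left unnamed) and 1193 none, and 10817 matched the RefSeq table of GRCm38.p6, used for names and promoter sequences.

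Probe sets were kept when the mean of log2(signal + 13) reached the 40th percentile of non-control probe sets. Fits used limma 3.58.1 in R 4.3.3 (lmFit, eBayes with trend, two-sided), with 2 residual and 4.61 prior degrees of freedom, and were tested on simulated data. Intervals of 95% are unadjusted. An exact permutation test of 2 arrays against 2 was not run. A gene in a list was read by its probe set of highest mean. Named were all members, and from each list the genes past the threshold and up to 4 others of smallest p. No gene short of the threshold was named from the biotin and glycogen lists. Members and lists were chosen with earlier results of these data known. Alternatives covered the offset, the signal minimum, normalization, the variance model, the replicate block, the control probe sets in the fit, the mean of a gene's kept probe sets and leaving out each array. With 2 arrays a group, precision is limited by their number.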

Additional observations from a re-analysis of the deposited data

How the results depend on the processing

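Pck1, Tat, Slc37a4 and Pcx (_s_at) were lower in PEPCK-TAg under all 15 alternatives. Both PEPCK-TAg arrays lay below both wild-type arrays for each, so only the changes of normalization could have reversed their direction. Fbp1 was higher with quantile normalization (0.074) and cyclic loess (0.10), and the _f_at probe set of Pcx ranged from -0.82 to 0.12 with 1 array left out, higher without PEPCK-TAg replicate 1, none passing; the cause was not tested. Leaving out 1 array gave 294 to 401 higher and 94 to 147 lower probe sets, 1 to 3 members called lower, and 4 to 12 genes called lower and 0 to 3 higher over the pathway lists (12 and 2 with all arrays). The lists had 7 lower without PEPCK-TAg replicate 2 and 4 without wild-type replicate 1. Lower probe sets numbered 105 with no signal minimum, where more were tested, 409 with arrays centred on their medians and 117 without the variance trend. The higher list genes numbered 0 with no minimum and with the 60th percentile, and 1 with quantile normalization. With a gene's kept probe sets averaged, 10 list genes were lower and 2 higher, without Pcx and Gpd1. Deviations of same-numbered arrays correlated with r = 0.18, but a single pair of arrays in each group can neither show nor exclude pairing. A block for the replicate number leaves fewer residual degrees of freedom than the 2 of the main fit. With the replicate number as a block, 444 probe sets were lower, 4 members were called lower (Pck1 with adjusted p = 0.0279 and Tat with 0.00409 in limma), G6pc also passed (0.00241), and 20 list genes were lower and 4 higher. Depth is not defined for arrays, and signals near 48.1 are close to the minimum kept.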
